A study of Mus musculus with 335 samples.

Results

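The genes described here are 34 genes of DNA replication and mitosis, 15 assigned to S phase and 19 to the G2 phase and mitosis (G2/M). All 34 had a row among the 13448 named genes of the deposited count table, and all 34 passed a minimum of 100 counts over the groups compared. They were followed in 335 single cells from E11.5 mouse embryos of wild-type genotype, taken from the aorta-gonads-mesonephros (AGM) region, where the first haematopoietic stem cells arise. The tissue was dissociated with collagenase and each cell was sorted straight into lysis buffer for Smart-seq2, a full-length single-cell RNA-seq method. The HSC group holds 65 EPCR+CD45+ cells, a sort that contains the haematopoietic stem cells without being made up of them alone. The Dorsal group holds 93 and the Ventral group 89 Ngfr+Pdgfrb- cells, from the dorsal and the ventral side of the dorsal aorta. The Mesenchymal group holds 88 Pdgfrb+Ngfr- cells from the ventral side, a sort that contains the subaortic mesenchyme. The labels name no animal or litter and each group was sequenced as 1 pool, so each group is 1 sample, group and pool cannot be told apart, and no test between groups was possible.

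A dividing cell first licenses its replication origins, for which Cdc6 and Cdt1 load the Mcm2 to Mcm7 helicase, and cyclin E (Ccne1, Ccne2) with its kinase drives entry into S phase. Pcna then clamps the polymerases to DNA while ribonucleotide reductase (Rrm1, Rrm2) and thymidylate synthase (Tyms) supply nucleotides. In G2 and mitosis cyclin A and cyclin B switch on Cdk1, the spindle is built by kinases and motors such as Plk1, Aurka and Kif11, and the anaphase-promoting complex with Cdc20 and Ube2c ends mitosis by destroying cyclin B. E2F factors are known to switch on many S phase genes, and the MuvB complex, through CHR elements, many G2/M genes. CCAAT boxes, a separate element, often stand near CHR elements. In the embryo at this stage haematopoietic progenitors, neural crest derivatives and mesenchyme all still divide.

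The promoters of the members differ in the letters they hold, and 6 are printed to show the 2 patterns. In the RefSeq table of promoters (GRCm38.p6, 250 bases before to 50 after each start site) 29 of the 34 members were found; Aurkb, Ccna2, Ccne2, Mcm4 and Tpx2 were not. Each line gives the bases just before the start site, 5′ to 3′ on the strand of the gene, with matches in capitals. The capitals mark E2F letters (TTTGGCGC, TTTCGCGC or GGCGGGAA), CHR letters (TTTGAA or TTCGAA) and CCAAT, all searched on both strands, where TTCGAA reads the same on both.
Cdc20: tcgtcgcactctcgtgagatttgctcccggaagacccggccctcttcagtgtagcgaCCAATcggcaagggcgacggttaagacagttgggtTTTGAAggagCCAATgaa
Top2a: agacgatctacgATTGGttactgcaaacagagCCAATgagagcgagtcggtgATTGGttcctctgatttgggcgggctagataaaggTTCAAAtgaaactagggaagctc
Kif11: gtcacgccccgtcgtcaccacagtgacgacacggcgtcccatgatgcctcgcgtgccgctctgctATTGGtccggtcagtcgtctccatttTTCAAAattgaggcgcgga
Cdk1: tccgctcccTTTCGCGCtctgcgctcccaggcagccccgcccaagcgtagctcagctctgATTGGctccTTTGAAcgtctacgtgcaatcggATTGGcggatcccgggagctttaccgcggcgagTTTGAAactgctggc
Mcm6: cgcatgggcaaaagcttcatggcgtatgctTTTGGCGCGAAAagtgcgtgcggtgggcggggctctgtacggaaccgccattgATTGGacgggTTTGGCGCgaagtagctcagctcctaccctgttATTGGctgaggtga
Rrm1: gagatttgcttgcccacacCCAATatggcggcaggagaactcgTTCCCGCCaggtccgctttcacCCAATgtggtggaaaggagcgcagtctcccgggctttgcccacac
These stretches lie at chr4:118437344-118437453 (minus strand), chr11:99024190-99024299 (minus), chr19:37376272-37376381 (plus), chr10:69352913-69353052 (minus), chr1:128359706-128359845 (minus) and chr7:102441585-102441694 (plus). Counting the base before the start site as -1, CHR letters began at -18 in Cdc20, -23 in Top2a and -19 in Kif11, each with CCAAT letters upstream. Cdk1 held CHR letters at -71 and -15 and, alone among the G2/M members found, E2F letters, at -131. Mcm6 and Rrm1 held E2F and CCAAT letters and no CHR letters.

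Over the whole windows, CHR letters stood in 13 of the 16 G2/M members found (all but Birc5, Ccnb1 and Cenpe) and in 3 of the 13 S phase members, against 19.2% of 32851 promoters in the table. E2F letters stood in 6 of the 13 S phase members (Cdt1, Mcm3, Mcm5, Mcm6, Mcm7 and Rrm1) and in 1 of the 16 G2/M members, against 2.96% of all promoters. CCAAT letters stood in 9 of 13 S phase and 15 of 16 G2/M members, against 37.4% of all. A match of letters is a description of the window and not a shown binding site.

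**Figure D1:**
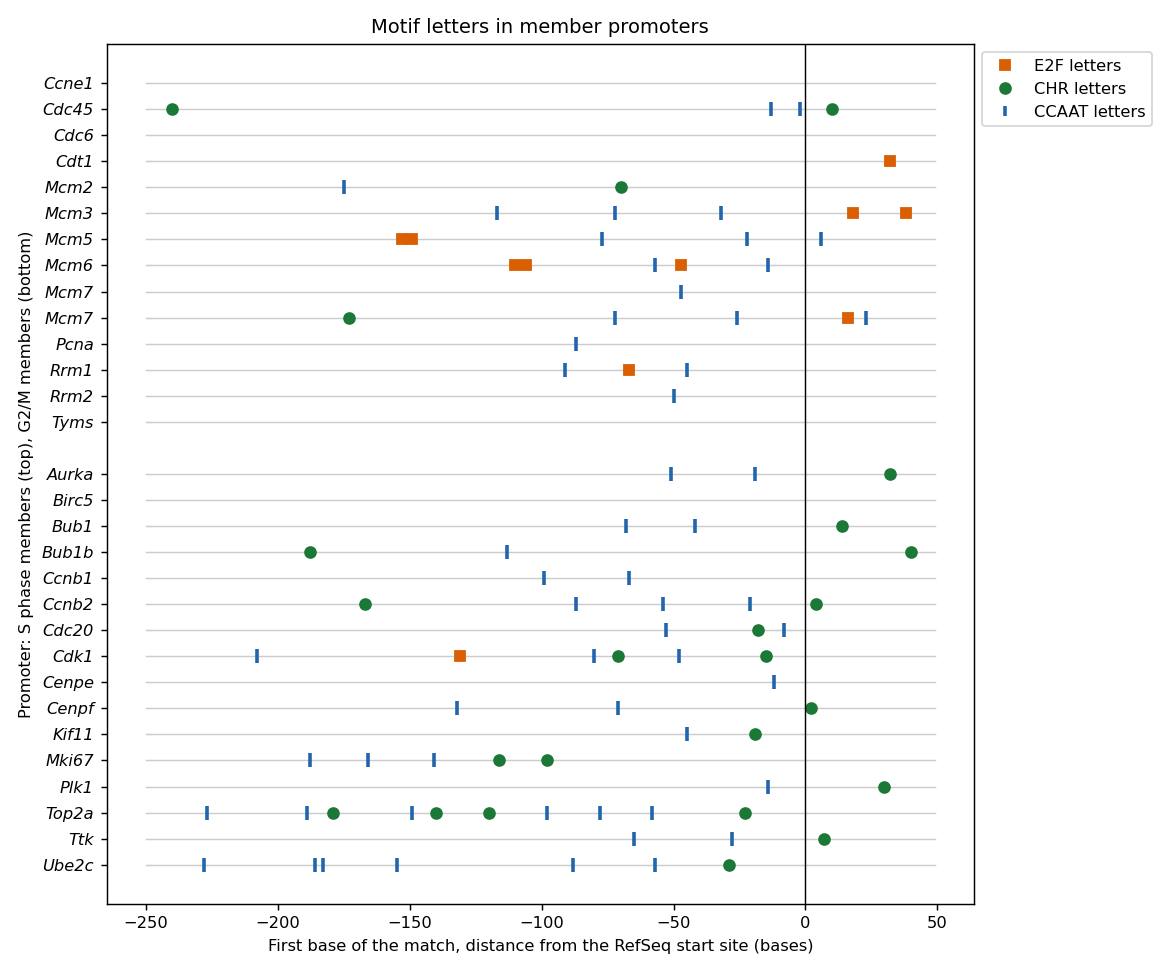
First base of each match of E2F letters (squares), CHR letters (circles) and CCAAT letters (bars) by distance from the RefSeq start site in bases (horizontal axis), with 1 row per promoter, 14 of S phase members on top and 16 of G2/M members below. CHR letters stand in 81.2% of the G2/M promoters and E2F letters in 42.9% of the S phase promoters, Mcm7 having 2 rows.

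Counts summed over the cells of a group ranged from 68560755 (Mesenchymal) to 110598792 (Ventral), and single cells held 126979 to 20481041 counts. The deepest Ventral cell alone held 18.5% of the Ventral counts, so levels are means over cells with each cell weighted equally, in CPM (counts scaled to 1000000 over the named genes of a cell). The groups carried the markers of their sorts: 8 haematopoietic genes summed to a mean of 2139 CPM in HSC and 136.3 to 248.3 elsewhere, 5 neural crest and glial genes to 996.4 in Dorsal and 438.4 in Ventral against 1.29 in HSC and 10.4 in Mesenchymal (2 of the 5 at 0 in each of the latter), and 8 mesenchymal genes to 4562 in Mesenchymal against 45.1 to 243.5. Sympathoadrenal genes (7 of 8 listed) summed to 1060 in Dorsal and 917.1 in Ventral against 16.9 in HSC and 65.8 in Mesenchymal, and 4 endothelial genes to 458 in HSC against 7.51 to 64.7. Macrophage genes (6 of 7 listed were measured) averaged 652.4 CPM in Dorsal and 843.6 in Ventral, from a minority of cells, since the medians were 12.5 and 10.7. At least 5 counts of Csf1r, the receptor of macrophage colony-stimulating factor, were present in 38 Dorsal and 27 Ventral cells.

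Cells with many G2/M transcripts made up a larger share of the HSC and Ventral groups than of the Mesenchymal group. To compare cells at 1 depth, each cell was thinned to 310000 counts, which left out 1 HSC, 1 Dorsal, 9 Ventral and 19 Mesenchymal cells. A gene was called detected at 5 counts, and a cell G2/M-positive with at least 10 of the 19 members. By this rule 29 of 64 HSC cells were positive (45.3%, exact Clopper-Pearson 95% limits 32.8 to 58.3), and 35 of 80 Ventral cells (43.8%, 32.7 to 55.3). Among Dorsal cells 27 of 92 were positive (29.3%, 20.3 to 39.8), and among Mesenchymal cells 13 of 69 (18.8%, 10.4 to 30.1). The Mesenchymal limits lay below those of HSC and Ventral, while the Dorsal limits overlapped with all others. Limits on shares and on summed counts cover counting error only, not differences between embryos. Those on summed counts also leave out the spread between cells.

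Without thinning the G2/M shares were 47.7% in HSC, 39.8% in Dorsal, 58.4% in Ventral cells and 22.7% in Mesenchymal cells. At 500000 counts they were 51.9% of 54 HSC, 31.8% of 85 Dorsal, 53.8% of 52 Ventral and 22.7% of 44 Mesenchymal cells. These settings change both the depth and the cells included. HSC and Ventral changed order between them, and Dorsal and Mesenchymal stayed below both in each of these settings. Among the cells too shallow to thin, 6 of 9 Ventral and 6 of 19 Mesenchymal cells had at least 10 members in their own counts. Without the cells with Csf1r at their own depth the shares were 30.9% of 55 Dorsal and 42.1% of 57 Ventral cells. Within a group, the number of G2/M members detected correlated weakly with the cell's total counts (Spearman rho 0.039 to 0.22) and more with the number of genes detected after thinning (0.311 to 0.583). The part of detected genes in the shares was not tested.

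Over all groups together, the number of G2/M members detected per cell had a low and a high range with fewer cells between. Above that gap, at 14 or more members, stood a smaller share of the cells in Dorsal and Mesenchymal than in HSC and Ventral. Of the 305 thinned cells, 181 had 0 to 7 members, 89 had 14 to 19, and 35 had 8 to 13. The medians were 6.5 members in HSC, 6 in Dorsal, 8 in Ventral cells and 4 in Mesenchymal cells. Cells 1 member from the limit on either side (9 or 10 members) numbered 2 HSC, 7 Dorsal, 5 Ventral and 2 Mesenchymal cells. Cells with 14 or more members numbered 25 of 64 in HSC, 20 of 92 in Dorsal, 33 of 80 in Ventral and 11 of 69 in Mesenchymal. The summed G2/M level was far higher at the 90th percentile than in the median cell. In Ventral the median cell was at 691.6 CPM and the 90th percentile at 7891, and in Mesenchymal at 261.7 and 3992.

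**Figure D2:**
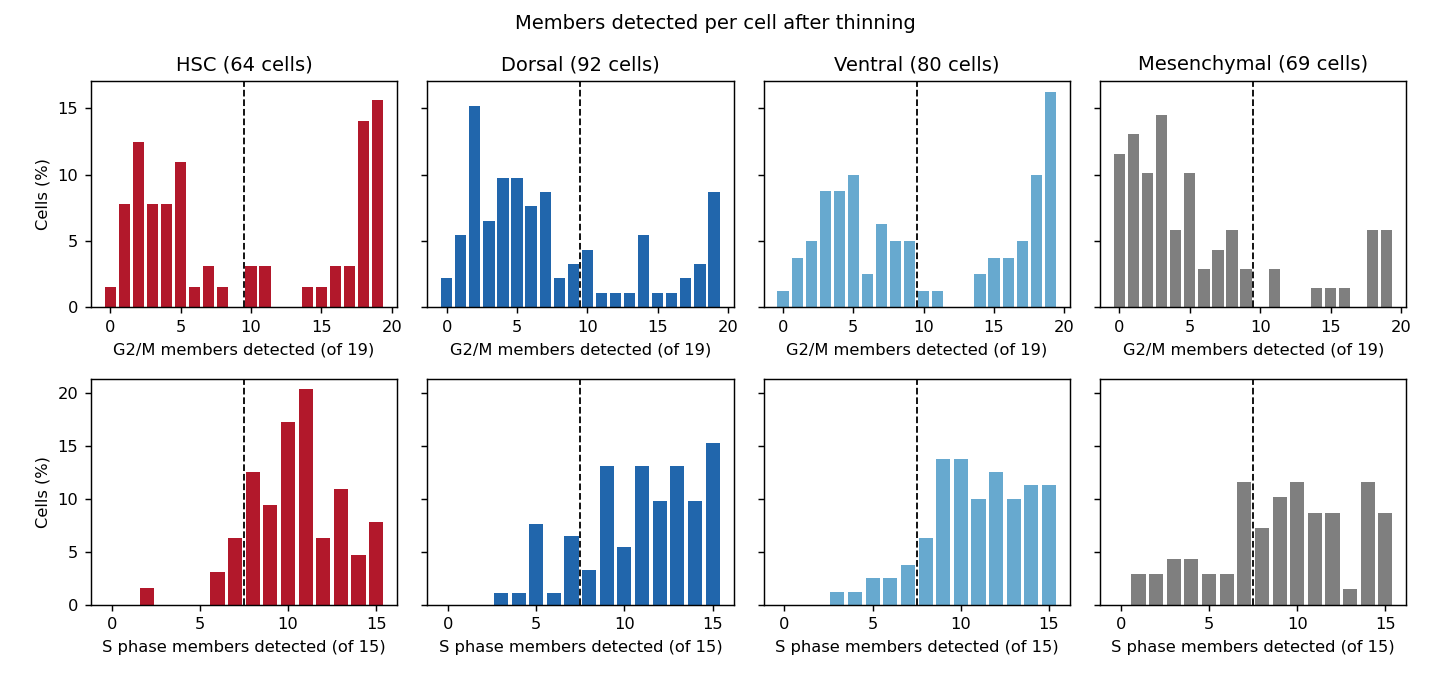
Number of members detected per cell after thinning to 310000 counts (horizontal axis) against the share of cells in % (vertical axis), for G2/M members (top) and S phase members (bottom) in each group, with a dashed line at the limit for a positive cell. Over all groups together G2/M members fall into a low and a high range, with 35 of 305 cells at 8 to 13 members. Above this gap, at 14 or more members, lies a smaller share of the cells in Dorsal and Mesenchymal than in HSC and Ventral. S phase members show no such gap, with medians of 10 to 11.

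S phase members were detected in most cells of every group. At least 8 of the 15 were present in 57 of 64 HSC cells (89.1%, exact limits 78.8 to 95.5), in 76 of 92 Dorsal cells (82.6%, 73.3 to 89.7), in 71 of 80 Ventral cells (88.8%, 79.7 to 94.7) and in 47 of 69 Mesenchymal cells (68.1%, 55.8 to 78.8). Their number per cell had medians of 10.5, 11, 11 and 10 and no gap, and 12 HSC, 9 Dorsal, 8 Ventral and 13 Mesenchymal cells had 7 or 8 members, so this share is a range set by its limit. With a limit of more than 66.7% of the members in place of 50% it was 50% in HSC, 60.9% in Dorsal, 55% in Ventral cells and 39.1% in Mesenchymal cells, and Dorsal then stood above HSC and Ventral. The Mesenchymal share was the lowest under both limits. Within a group, the number of S phase members detected also correlated with the number of genes detected after thinning (Spearman rho 0.353 to 0.571). The median of genes detected was 6537 in HSC, 7544 in Dorsal, 7270 in Ventral cells and 6412 in Mesenchymal cells. Its part in the S phase shares was not tested.

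The share of cycling cells, positive for either set, followed the S phase share: 90.6% in HSC (58 of 64), 84.8% in Dorsal (78 of 92), 88.8% in Ventral cells (71 of 80) and 69.6% in Mesenchymal cells (48 of 69, limits 57.3 to 80.1). Nearly all G2/M-positive cells were also S phase-positive; the exceptions were 1 HSC, 2 Dorsal, 0 Ventral and 1 Mesenchymal cell. Detection of S phase transcripts in most cells does not show that those cells were replicating DNA, since DNA content was not measured.

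Among single G2/M members, Mki67, the gene of the Ki-67 proliferation antigen (chr7:135689784-135716361 on GRCm38, as for all gene positions here, minus strand), averaged 171.9 CPM in HSC, 68.5 in Dorsal, 187.3 in Ventral cells and 76.3 in Mesenchymal cells. Its lowest cell was at 0 in every group, its median cell at 44.6, 1.38, 20.9 and 0.583 CPM, and its highest at 836.2, 912.1, 1125 and 705.1 CPM, in the same order. The groups overlapped over nearly their whole range, and the highest cells were close; what differed was how many cells were high. It was detected in 54.7% of HSC, 32.6% of Dorsal, 50% of Ventral and 30.4% of Mesenchymal thinned cells. Counts summed over cells gave 257 CPM in HSC (exact Poisson limits 253.5 to 260.5), 73.7 in Dorsal (72.1 to 75.4), 174.7 in Ventral cells (172.3 to 177.2) and 114.1 in Mesenchymal cells (111.7 to 116.7), so HSC came above Ventral when deep cells counted for more. These narrow limits leave out the spread between cells, whose standard deviation was 225.6 CPM in HSC and 277 in Ventral.

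Among the cyclins and their kinase, Ccnb1, cyclin B1 (chr13:100778650-100786570, minus strand), averaged 186.4 CPM in HSC, 121.4 in Dorsal, 256.2 in Ventral cells and 96.6 in Mesenchymal cells. Its cells ran from 0 to 1366, 2303, 1702 and 1653 CPM, with medians of 13.1, 3.46, 52 and 3.19. The highest single cell was thus a Dorsal one, in a group whose median was low, and the groups overlapped. Detection was 51.6% in HSC, 35.9% in Dorsal, 60% in Ventral cells and 21.7% in Mesenchymal cells. Ccnb2, the second B-type cyclin, averaged 156, 77.3, 161.7 and 87.4 CPM in the same order, and Ccna2, cyclin A2, 132.6, 87.8, 215.1 and 81.6. Cdk1, the kinase they activate, averaged 188.6, 106.2, 203.9 and 100.5 CPM and was the G2/M member detected in the largest share of cells in each group (79.7%, 68.5%, 70% and 58%).

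Of the genes that end mitosis, Cdc20, the activator of the anaphase-promoting complex (chr4:118432901-118437352, minus strand), averaged 109.3 CPM in HSC, 69.3 in Dorsal, 154.8 in Ventral cells and 57.3 in Mesenchymal cells. Its median cells stood at 20.7, 5.69, 43.1 and 3.32 CPM and its highest at 888.7, 693.8, 1105 and 909.9, with every group starting at 0. Ube2c, the ubiquitin-conjugating enzyme of that complex, averaged 247.8, 105.6, 283.3 and 112.1 CPM. Its highest cell, at 3130 CPM, was Mesenchymal, although the Mesenchymal median was 9.76. The exons of Cdc20 overlap Elovl1, and those of Ube2c overlap Tnnc2, on the other strand. Such overlaps also exist for Ccna2 (Exosc9), Plk1 (Gm44985), Ccne2 (Ints8) and Cdc45 (Ufd1), and Top2a overlaps Gm23451 on the same strand. Whether counting used the strand is not given in the sources used here, so reads cannot be told apart in these overlaps.

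Among spindle kinases, motors and chromosome proteins, Plk1, the polo-like kinase of mitotic entry, averaged 47.9 CPM in HSC, 42.2 in Dorsal, 95.2 in Ventral cells and 27.9 in Mesenchymal cells, where 50 of 88 cells had none. It was detected in 46.3% of Ventral and 17.4% of Mesenchymal cells. Top2a, the topoisomerase that untangles sister chromatids, and Kif11, the motor that separates spindle poles, were the 2 members highest in HSC. Top2a averaged 335.9 CPM in HSC, 138.4 in Dorsal, 269.1 in Ventral cells and 159.3 in Mesenchymal cells, and its median HSC cell (147.7) stood above the other medians (7.01 to 40.2). Kif11 averaged 37, 10.7, 29.7 and 13.7 CPM and was detected in 43.8%, 15.2%, 31.3% and 20.3% of cells. Birc5, survivin, a subunit of the chromosomal passenger complex with the kinase Aurkb, averaged 180.5, 116, 244.1 and 160.4 CPM.

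**Figure D3:**
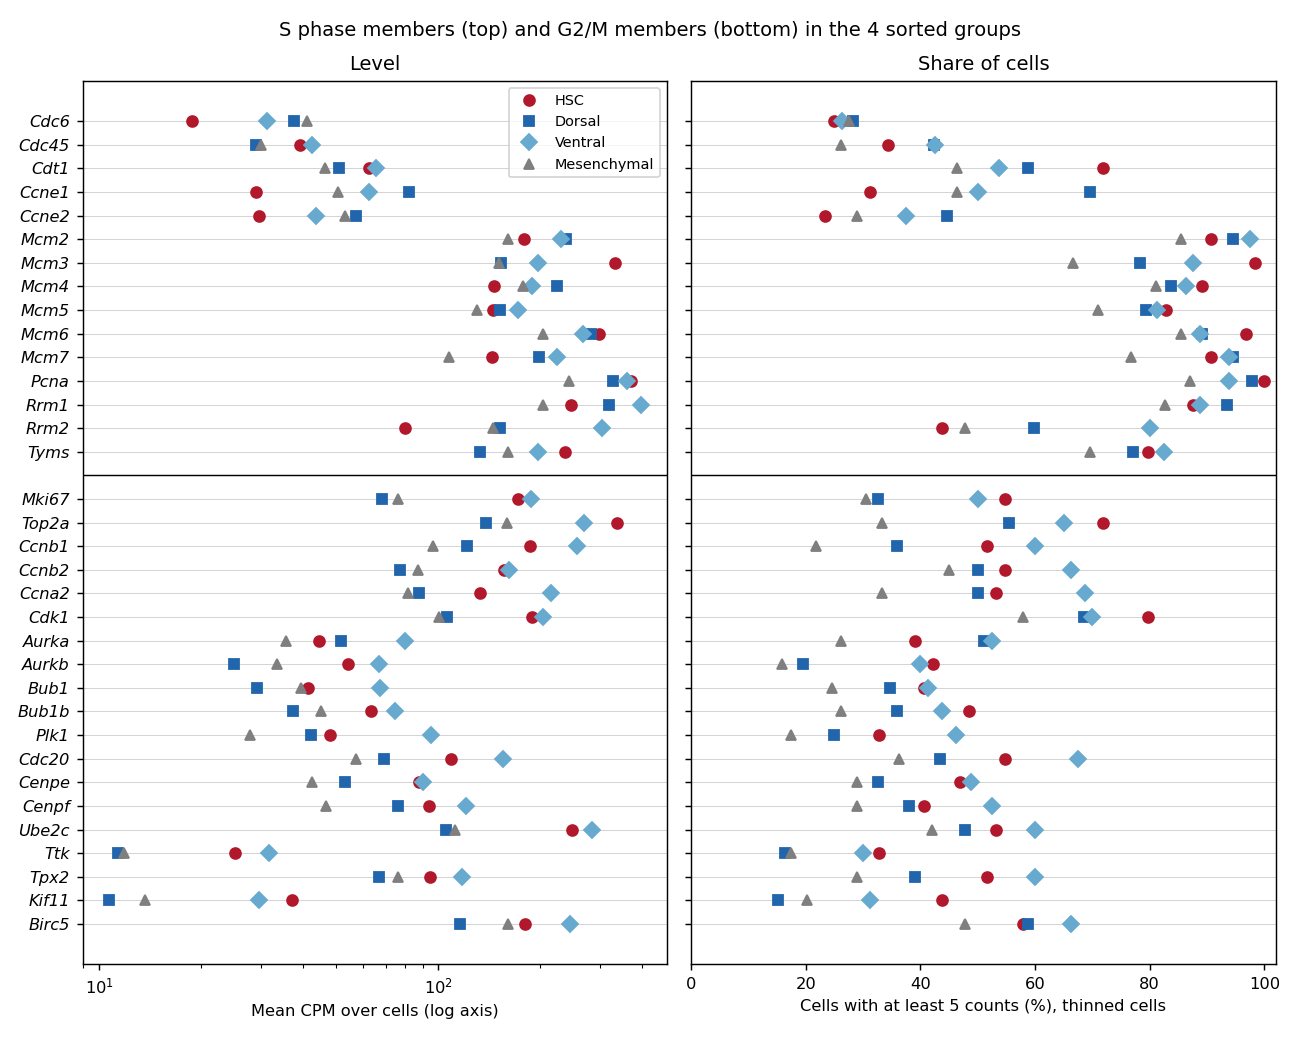
Mean CPM over cells (left, log axis) and share of thinned cells with at least 5 counts in % (right) for each of the 15 S phase and 19 G2/M members, with 1 point per group. By mean level 17 G2/M members are highest in Ventral and 2 (Top2a and Kif11) in HSC, while the S phase members have no common order.

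In the order of mean levels, all 19 G2/M members were lower in Dorsal than in Ventral cells and lower in Mesenchymal cells than in Ventral, and HSC lay above Dorsal for 18 of 19 (not Aurka, 44.5 against 51.8 CPM). The lowest level was in Dorsal for 11 members and in Mesenchymal for 8. Folds were taken as log2 of the ratio of mean CPM + 1, which understates the change of low genes, and called at 2-fold. Of all 13152 genes with 100 counts in Dorsal and Ventral, 5.56% were lower in Dorsal by 2-fold or more and 3.31% higher by 2-fold or more. Of the G2/M members 12 of 19 were lower in Dorsal by 2-fold or more and 0 were higher, with a median log2 of -1.07 against -0.02 over all genes. Marker lists of other cell types also differed: 5 of 8 mesenchymal genes (median -1.46), 3 of 4 endothelial genes (-2.80) and 4 of 8 haematopoietic genes (-0.83) were lower in Dorsal by 2-fold or more, and 3 of 5 neural crest and glial genes were higher. Their part in the G2/M difference was not tested.

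The most different between Dorsal and Ventral were Mki67 (log2 -1.44), Ube2c (-1.42) and Ttk, a spindle checkpoint kinase (11.3 CPM in Dorsal, 31.7 in Ventral). Aurkb and Kif11 were at -1.39 each and Ccna2 at -1.28. The least different were Aurka (-0.61), the centromere protein gene Cenpf (-0.67) and the kinetochore motor gene Cenpe (-0.75). Without the 38 Dorsal and 27 Ventral cells with Csf1r at their own depth, only 4 of the 19 were lower by 2-fold or more, with a median of -0.81. Those left-out cells outnumber the 16 Dorsal and 13 Ventral cells with Csf1r after thinning, and the part of macrophages in that change was not tested. With the deepest 5% of cells left out 6 were, with a median of -0.95. All 19 were below 0 in each of the 10 alternatives tried. A change of pseudocount or of the filter cannot turn a sign, so only the other alternatives bear on direction. In those the direction held, while the number past 2-fold did not.

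Ventral cells were also set against Mesenchymal cells from the same side of the aorta. Here 16.4% of 13065 genes were higher in Ventral by 2-fold or more and 7.68% lower by 2-fold or more, and the median of all genes was 0.22. Of the G2/M members 12 of 19 were higher in Ventral by 2-fold or more and 0 lower, with a median of 1.07. All 6 macrophage genes measured were also higher in Ventral (summed mean 843.6 against 3.31 CPM), and without the cells with Csf1r the G2/M median was 1.10. Plk1 differed most (1.73), then Cdc20 (1.42), Ccnb1 (1.40) and Ccna2 (1.39), and Cdk1 was just past the limit (1.01). When counts were summed over cells only 2 were past 2-fold (Cdc20 and Ttk), and 6 members (Aurkb, Bub1b, Cenpe, Tpx2, Kif11 and Birc5) turned below 0. That sum gives more weight to deep cells: the deepest Ventral cell had 1 of 19 G2/M members detected and the deepest Mesenchymal cell 19 of 19. With the deepest cell of each group left out, 10 were past 2-fold and all 19 above 0.

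For the HSC group a fold was taken against the nearest of the other 3 groups. Among 13446 genes 6.03% were above all others by 2-fold or more and 12.6% below all others by 2-fold or more. None of the 19 G2/M and none of the 15 S phase members was in either class. Top2a (log2 0.32) and Kif11 (0.31) were the G2/M members above every other group. Thus HSC G2/M levels lay between those of Ventral and the lower of the other groups for 17 members.

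**Figure D4:**
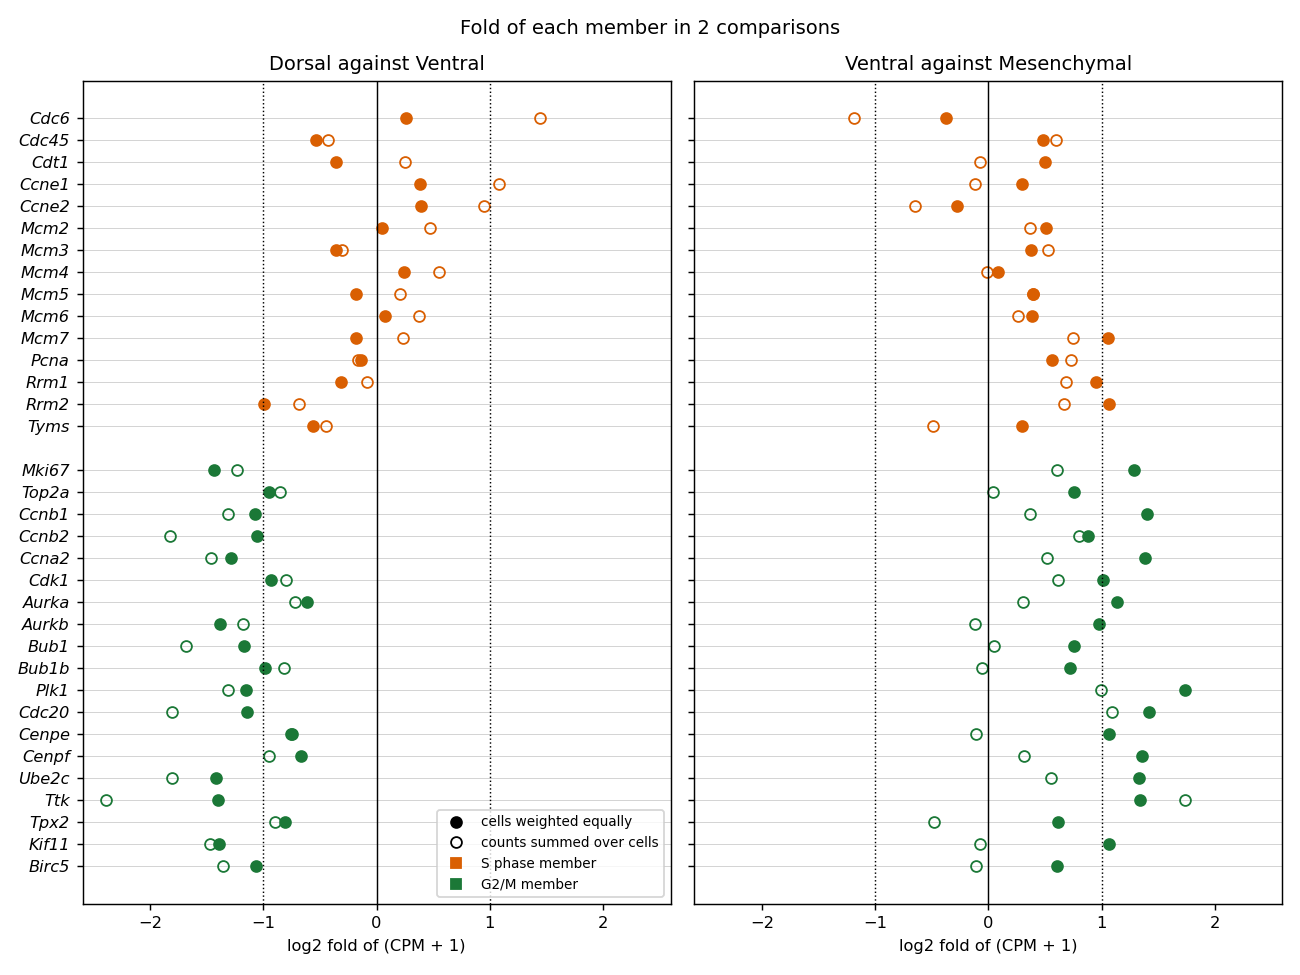
Log2 fold of (CPM + 1) for each member (horizontal axis; 1 row per gene) in Dorsal against Ventral and in Ventral against Mesenchymal, with cells weighted equally (filled) or counts summed over cells (open); dotted lines mark 2-fold. All 19 G2/M members lie below 0 in Dorsal against Ventral by both measures, while in Ventral against Mesenchymal 6 of them turn below 0 when counts are summed.

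The S phase members did not share 1 order. Between Dorsal and Ventral 0 of 15 were 2-fold different in either direction (median log2 -0.18), against 5.56% of all genes lower in Dorsal and 3.31% higher. Between Ventral and Mesenchymal 2 were higher in Ventral by 2-fold or more, Rrm2 and Mcm7 (1.05), and 0 lower (median 0.40, against 0.22 over all genes). A count of 2 of 15 is a smaller share than the 16.4% of all genes higher in Ventral. Both stood near the limit and were short of it with counts summed or with the size factors of the authors. The highest level was in Ventral for 6 members, in HSC for 4, in Dorsal for 4 and in Mesenchymal for 1 (Cdc6). Mesenchymal was lowest for 8 members and HSC for 5.

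With cells weighted equally 5 members stood lowest in HSC: Ccne1, Ccne2, Cdc6, Mcm4 and Rrm2. Ccne1, cyclin E1 (chr7:38097984-38107534, minus strand), averaged 29 CPM in HSC, 81.7 in Dorsal, 62.6 in Ventral cells and 50.8 in Mesenchymal cells. Its median cells were at 6.03, 43.4, 24 and 12.5 CPM and its highest at 213.1, 732.7, 343.9 and 362.1, all groups starting at 0. It was detected in 31.3% of HSC cells (exact limits 20.2 to 44.1) and 69.6% of Dorsal cells (59.1 to 78.7), with 50% of Ventral and 46.4% of Mesenchymal cells between. Ccne2, cyclin E2, averaged 29.7, 57.4, 43.5 and 53 CPM, and Cdc6, the loading factor, 18.8, 37.6, 31.3 and 40.9, although the share of cells with Cdc6 differed little between groups (25% to 28.3%). HSC was below the nearest group by log2 -0.79 for Ccne1, -0.70 for Cdc6 and -0.54 for Ccne2, all short of 2-fold. With counts summed over cells Cdc6 and Ccne2 were not lowest in HSC: Cdc6 was at 26.4 CPM in HSC and 16.2 in Ventral, and Ccne2 at 51.2 and 30.7, while Ccne1 stayed lowest in HSC (38.8 against 42.3 in Ventral). Cdt1, the other loading factor, did not share that order, at 62.5 CPM in HSC, 51.1 in Dorsal, 65.7 in Ventral cells and 46.3 in Mesenchymal cells.

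Within the helicase, Mcm3 stood apart from the other subunits. It averaged 331.4 CPM in HSC, 153.1 in Dorsal, 196.4 in Ventral cells and 151.5 in Mesenchymal cells, with medians of 309.6, 99.9, 157.1 and 94.5. Its lowest HSC cell held 11.3 CPM, while the other groups each had cells at 0, and it was detected in 63 of 64 HSC cells. HSC exceeded the nearest group by log2 0.75. The other subunits did not follow it: Mcm2 was at 178.8 CPM in HSC and 238.6 in Dorsal, Mcm4 at 146.4 and 224.3, and Mcm7 at 144.5 and 198.3, while Mcm6 (297.6 and 281.2) and Mcm5 (144.7 and 151.9) were close. Mcm7 shares exon sequence with Ap4m1, Cops6, Mir25 and Mir93, and its value may include their reads.

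Among the nucleotide enzymes, Rrm2, the small subunit of ribonucleotide reductase (chr12:24708241-24714146, plus strand), averaged 79.7 CPM in HSC, 152.3 in Dorsal, 303.7 in Ventral cells and 144.6 in Mesenchymal cells. Its median cells were at 3.82, 57.1, 117.3 and 15.9 CPM and its highest at 608.8, 794, 2520 and 1188. Ventral had the highest cells and HSC the lowest, with overlap, and detection was 80% in Ventral and 43.8% in HSC. Between Dorsal and Ventral its log2 fold of -0.99 stood just inside 2-fold, and it passed 2-fold when the deepest Ventral cell was left out. Rrm1, the large subunit, averaged 246.4, 318.2, 395.1 and 204.3 CPM. Tyms had another order, at 236.8 CPM in HSC, 132.9 in Dorsal, 197 in Ventral cells and 160.2 in Mesenchymal cells. Pcna, the clamp, was at 370, 326.4, 359.1 and 243.4 CPM, and was detected in 87% to 100% of cells. Named pseudogenes of Pcna, Tyms, Ccnb1 and Ccnb2 exist and reads may be shared with them.

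Across cells, the G2/M members moved together more closely than the S phase members. Spearman rho was taken within each group over the 305 thinned cells and averaged over the 4 groups, as a description, since genes of 1 cell share its depth. The 171 pairs of G2/M members had a median rho of 0.578 (0.387 to 0.747, highest for Ccnb2 with Birc5). The 105 pairs of S phase members had a median of 0.404 (0.172 to 0.615, highest for Rrm2 with Pcna), and the 285 mixed pairs one of 0.111 (-0.167 to 0.589). The mixed pairs split by S phase gene. Rrm2, Tyms, Rrm1 and Cdc45 had median rho of 0.455, 0.454, 0.419 and 0.393 with the G2/M members, whereas Mcm2 (-0.0738), Mcm4 (-0.0503), Mcm3 (0.0391), Cdt1 (0.044) and Ccne1 (0.0488) had almost none. By the same split, 36 of the 40 Ventral cells with Mki67 had Rrm2, and 25 of the 48 with Ccnb1 had Ccne1, of 80 cells in which 64 had Rrm2 and 40 had Ccne1.

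Of 7918 genes detected in at least 25% of the cells of every group, those closest to the summed G2/M members in rho were Pclaf, a Pcna partner (0.785), the chromatin protein gene Hmgb2 (0.775), the tubulin gene Tuba1b (0.749), the histone variant gene H2afz (0.739) and Cks1b, a Cdk-binding protein (0.734). Cdca3, Cdca8, Cenpa, Nuf2 and Spc25 completed the 10 closest (0.687 to 0.733). Close to the summed S phase members were Lig1, the replicative DNA ligase (0.659), Uhrf1 (0.638), Gmnn, the inhibitor of Cdt1 (0.628), and Nasp, a histone chaperone (0.609). Dek, Tipin, Dut, Atad2 and Ranbp1 followed (0.575 to 0.607).

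Other mitosis and replication genes were counted in the same way. Of 39 measured mitosis genes outside the members, 11 were lower by 2-fold or more and 1 higher in Dorsal than in Ventral (median log2 -0.84). Over all genes 5.56% were lower and 3.31% higher. The lower mitosis genes were led by Ckap2l (-1.36), Dlgap5 (-1.35), Hmmr (-1.31) and the kinetochore gene Ndc80 (-1.29). In Ventral against Mesenchymal 14 of the 39 were higher and 0 lower, against 16.4% and 7.68% of all genes. The centrosomal kinase gene Nek2 led (1.75), a low gene at 0 in 74 of 88 Mesenchymal cells (mean 2.6 CPM). Of 36 measured replication genes only 1 was lower in Dorsal, Rad51ap1 (-1.06), a smaller share than the 5.56% of all genes. In Ventral against Mesenchymal 2 were higher, Dbf4, the activator of the Cdc7 kinase (1.13), and Uhrf1 (1.06), a smaller share than the 16.4% of all genes. In HSC against the others 1 of 36 replication genes was higher, Pole, a polymerase subunit (1.53), against 6.03% of all genes. Lower was 1 of 36, Ung, uracil-DNA glycosylase (-1.08), against 12.6% of all genes. Of the 39 mitosis genes 1 was higher in HSC, Lbr (1.355), and 0 lower, against 6.03% and 12.6% of all genes.

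Of 16 measured genes of E2F, Rb and DREAM, the factors that time both sets, 0 were 2-fold different between Dorsal and Ventral. Over all genes 5.56% were lower in Dorsal and 3.31% higher. Foxm1, a factor of the G2/M genes, was at -0.84 and E2f2 at -0.85. Mybl2 (1.32) and E2f2 (1.23) were higher in Ventral than in Mesenchymal, 2 of 16 against 16.4% of all genes, and E2f2 was at 0 in 83 of 88 Mesenchymal cells. Rb1, the retinoblastoma gene, was higher in HSC than in every other group (1.12), 1 of 16 against 6.03% of all genes. Among CDK inhibitors Cdkn1c, p57, averaged 258.9 CPM in HSC, 3312 in Dorsal, 2749 in Ventral cells and 662.5 in Mesenchymal cells, so the Ventral group was high both in Cdkn1c and in G2/M genes. Per cell, within a group, Cdkn1c and the number of G2/M members were nearly unrelated (rho -0.0645 in HSC, -0.00985 in Dorsal, -0.0202 in Ventral cells and 0.069 in Mesenchymal cells). Cdkn1a, p21, averaged 13.3 CPM in HSC and 2.58 to 4.68 in the others, but 47 of 65 HSC cells were at 0 and 1 was at 416.1 CPM, without which the HSC mean was 6.96.

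Within the groups the G2/M share was compared between cells with and without 5 thinned counts of a marker, and in every pair the exact limits overlapped. In Dorsal the cells with Dbh, the noradrenaline-synthesis enzyme, were positive in 8 of 43 (18.6%, 8.39 to 33.4) and those without in 19 of 49 (38.8%, 25.2 to 53.8). Dorsal cells with Elavl4, a neuronal RNA-binding protein, were positive in 14 of 64 (21.9%, 12.5 to 34) and those without in 13 of 28 (46.4%, 27.5 to 66.1). In Ventral the shares with and without Dbh were 34.5% and 49%, but those with and without Elavl4 were 45.8% and 40.6%, the other way round. Total counts moved with Dbh too: the median was 783913 in Dorsal cells with it and 1297399 in those without, and their part was not tested.

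For Csf1r, here by thinned counts, the share was 31.3% in Dorsal cells with it (5 of 16) and 28.9% in those without. In Ventral these shares were 38.5% (5 of 13) and 44.8%. Dorsal cells with Sox10, a factor of crest and glia, were positive in 30.8% and those without in 21.4%. In HSC the share was 53.3% in 45 cells with Mpo, the myeloperoxidase of myeloid progenitors, and 26.3% in 19 without, and 39.6% in 53 cells with Cdh5, VE-cadherin, and 72.7% in 11 without. With and without Gfi1, a transcriptional repressor of early blood cells, it was 45.5% and 45.2%. In Mesenchymal it was 15.6% with and 21.6% without Acta2, smooth muscle actin, and 16.7% and 22.2% for Rgs5, a pericyte gene. Total counts moved with the HSC markers too. Their median was 1093021 with Mpo and 894471 without, and 943771 with Cdh5 and 1375527 without, and their part was not tested.

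**Figure D5:**
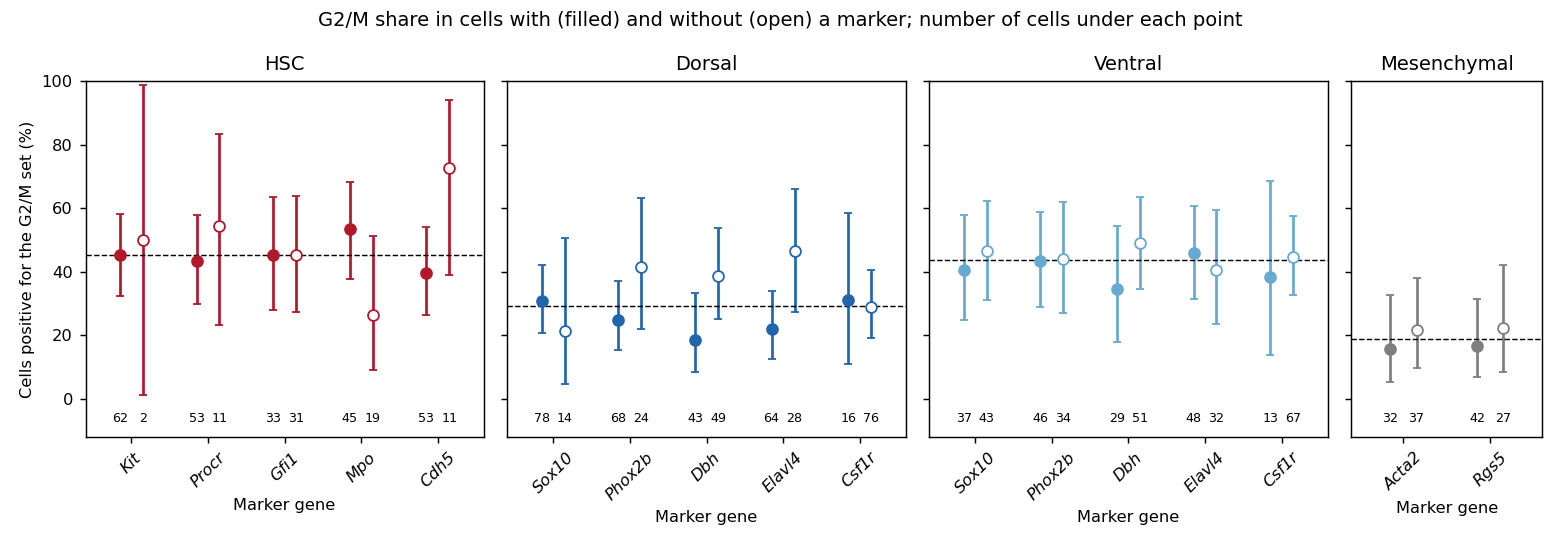
Share of G2/M-positive cells (%, vertical axis) among cells with (filled) and without (open) each marker gene, by group, with exact Clopper-Pearson 95% limits, the number of cells under each point and the share of the whole group as a dashed line. The widest gaps are for Mpo and Cdh5 in HSC and for Dbh and Elavl4 in Dorsal, and all pairs of limits overlap. Cells with and without these markers also differ in median total counts.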

How the data were processed

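RNA of 335 single cells in 4 sorted groups was measured by Smart-seq2, with 1 sample per group and no replicate. The deposited table holds estimated counts that need not be whole, which come from the authors' kallisto runs (version 0.43.1, GRCm38), per the submitters' processing notes; the deposited log2 table gave only the size factors of the authors (0.0985 to 19.6). Of 14109 entries, 661 without a gene symbol (2.96% of counts) were left out. Each cell was scaled to CPM and group means weighted cells equally. Genes with 100 counts over the groups compared were set at log2 of (mean CPM + 1) and called at 2-fold. For shares, cells were thinned without replacement to 310000 counts with a fixed seed. Doublets were not called. No 2 cells were copies, with highest correlations of 0.64 to 0.743 within a group. All 96 index pairs occurred in at least 2 pools and 55 in all 4, so they name wells and not cells.

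The members, the other lists and the settings were chosen with earlier results of these data known. All members could be named; of the other lists, the 4 genes with the largest fold in a comparison, all CDK inhibitors measured (Cdkn2a and Cdkn2b were not), and the 10 genes closest to each set, of which 1 is not reported here. In data simulated for Dorsal against Ventral, 12935 genes passed the filter, altered genes included. All altered genes were called, 100 of 100 raised 4-fold and 100 of 100 lowered to 0.25. Unchanged genes in the range of levels from which those were drawn were called in 0.0506%. Recovery of changes near 2-fold, where many G2/M members stand, was not tested. Alternatives were the pseudocount, the filter, the totals, the weighting of cells, left-out cells, and the depth and limits of detection. Python 3.11.15, numpy 2.4.6, pandas 2.3.3, scipy 1.17.1 and matplotlib 3.10.9 were used.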

Additional observations from a re-analysis of the deposited data

How the results depend on the processing

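No paired analysis was possible because each group is 1 sample without a replicate number and no test was made; for the same reason no replicate could be left out. Of 120 counts of members under an alternative, 18 moved by over 1.5 times; of 57 shares, 43 stayed within their limits; and of 632 folds of single members, 606 moved by less than 1.5 times and 2 that had been past 2-fold changed sign. Those 2 were Cenpe (-0.11) and Kif11 (-0.075) in Ventral against Mesenchymal with counts summed over cells; the deepest cell of each group moves that sum, as described above.

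In Dorsal against Ventral, S phase members higher by 2-fold or more numbered 2 with counts summed (0 otherwise). Those lower numbered 1, against 0, without the deepest Ventral cell, without the Ventral wells that share an index with it, with the deepest 5% of cells left out, without cells with Csf1r, and with counts summed without the deepest cell of each group, an alternative chosen after seeing the data, as was leaving out the highest Cdkn1a cell in HSC. G2/M members lower numbered 6 with the deepest 5% of cells left out and 4 without cells with Csf1r, against 12. In Ventral against Mesenchymal, S phase members higher numbered 0 with counts summed (with or without the deepest cells), with Dock10 and Cep97 left out of totals or with the size factors of the authors, and 1 with a pseudocount of 10 CPM, against 2. Those lower numbered 1 with counts summed, with or without the deepest cells. G2/M members higher numbered 2 with counts summed and 7 with a pseudocount of 10 CPM, against 12. In HSC against the others, 2 S phase members were lower with the deepest 5% of cells left out.

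With a limit of more than 66.7% of the members, the S phase share was 50% in HSC, 60.9% in Dorsal, 55% in Ventral cells and 39.1% in Mesenchymal cells, and the share for either set 59.4%, 64.1%, 70% and 44.9%. Without thinning, the Dorsal shares were 94.6% for S phase, 39.8% for G2/M and 96.8% for either, and the Ventral G2/M share 58.4%. At 500000 counts the Ventral S phase share and that for either set were both 96.2%. The cause of these changes was not tested. Scaling moved the median of all genes in Ventral against Mesenchymal from 0.22 to 0.04 with the size factors of the authors. With 1 sample per group no comparison of groups has a replicate check, and the shares also move with the depth and the cells kept.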
